A study of Mus musculus with 3 samples.

Results

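Expression of 44 genes of glycolysis, the pentose phosphate pathway, and the TCA cycle was examined in BMDMs, which are macrophages grown from mouse bone marrow with M-CSF. The genes were listed by pathway, as transporters, enzymes, and regulators of central carbon metabolism. The list was chosen with earlier results of these data known. Of the 44 genes, 43 were on the array under the listed name, 42 were measured on all 3 arrays, and 41 were well above background on all of them, out of 34821 gene names on the array, of which 33597 were measured and 15894 were well above background throughout. BMDMs from C57BL/6J mice in 3 groups were compared, each with 1 array: cells stimulated for 20 h with CpG, a DNA ligand of TLR9; with IFN-γ plus αIL-10R, an antibody that blocks the IL-10 receptor and is named IL-10RB in the labels; or with all of these agents (Triple). All cells had been grown in high glucose medium, and an unstimulated group was not analysed here. Because each condition had 1 array, no difference below has a replicate check and no p-value is given.

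Glycolysis splits glucose into pyruvate in the cytosol, and lactate dehydrogenase turns pyruvate into lactate, which leaves the cell through monocarboxylate transporters. The pentose phosphate pathway branches off at glucose 6-phosphate and makes NADPH and ribose, and the TCA cycle oxidizes acetyl groups in mitochondria. Macrophages stimulated through Toll-like receptors are known to take up more glucose, and activated macrophages divert the TCA intermediate cis-aconitate into itaconate through the enzyme encoded by Irg1 (current name Acod1).

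The value for each gene is the processed signal of the scanner software, an intensity after background subtraction, and folds were taken after each array was scaled by its 75th percentile. The percentiles lay between 4377 and 4550, no spot was saturated, and 44.4% to 46.0% of the 59305 spots per array were well above background. Replicate spots of 1 probe within an array varied with an SD of 0.080 to 0.096 on the log2 scale, which gives a technical SD of 0.13 for a log2 fold between single spots, so that a difference of 1.19-fold is 2 technical SDs. This error covers spot noise alone and not the spread between cultures. The 8 measured macrophage markers were well above background on all 3 arrays, with a summed signal of 616012 in CpG, 580157 in IFN-γ + αIL-10R, and 523048 in Triple. The sum hides changes in single markers, since 6 of the 8 were past 2-fold in some pair. Cd14 had 55389, 5534, and 90961 in the same order, and Cd68 had 153505, 190933, and 83203. Summed marker signals were 2624 to 2999 for T cells (Cd3d, Cd3g, and Cd8a at background), 3786 to 9409 for neutrophils (Mpo and Ngp at background), and 350.2 to 547 for fibroblasts (Pdgfra and Thy1 at background). Of the 6 neutrophil genes, 3 were past 2-fold in some pair and went different ways. Ly6g was highest in IFN-γ + αIL-10R, with 555 in CpG, 7699 in IFN-γ + αIL-10R, and 2658 in Triple, while S100a8 (297, 55.7, and 517 in the same order) and Camp (72.9, not above background, and 139) were lowest there. Of the B-cell genes, Ms4a1 and Pax5 were at background, and Cd79b was highest in CpG, with 801, 182, and 108. The part of these markers in the results below was not tested. In bulk RNA, fewer cells of a type and less RNA per cell cannot be told apart.

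Of the members with their highest signal in Triple and more than 2-fold higher there than in CpG, Hk3 and Pfkl are described below. The 4 others were Irg1, Slc2a6, Slc16a3, and Slc2a1, for itaconate, glucose transport, and lactate export. Their promoter windows, from 250 bases before to 50 bases after the RefSeq start site, are shown because the motif search below rests on them. The sequences are from RefSeq (GRCm38.p6), and capitals mark ACGTG or GCGTG on either strand and, in Irg1, also GGAAATTCC, which is GGNNTTTCC read on the opposite strand.
Irg1, chr14:103046762-103047061, plus strand: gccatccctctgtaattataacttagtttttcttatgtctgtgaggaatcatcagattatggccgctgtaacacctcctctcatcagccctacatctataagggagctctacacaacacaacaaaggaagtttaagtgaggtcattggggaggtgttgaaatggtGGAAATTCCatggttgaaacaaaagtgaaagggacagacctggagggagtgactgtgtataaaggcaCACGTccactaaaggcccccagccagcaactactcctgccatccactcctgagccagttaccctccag
Slc2a6, chr2:27027949-27028248, minus strand: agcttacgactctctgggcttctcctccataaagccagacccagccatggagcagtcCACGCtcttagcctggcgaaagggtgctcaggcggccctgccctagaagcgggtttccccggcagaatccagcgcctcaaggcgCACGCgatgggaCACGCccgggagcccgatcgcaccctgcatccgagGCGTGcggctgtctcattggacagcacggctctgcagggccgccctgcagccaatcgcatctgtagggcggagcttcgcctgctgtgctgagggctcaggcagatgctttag
Slc16a3, chr11:120948817-120949116, plus strand: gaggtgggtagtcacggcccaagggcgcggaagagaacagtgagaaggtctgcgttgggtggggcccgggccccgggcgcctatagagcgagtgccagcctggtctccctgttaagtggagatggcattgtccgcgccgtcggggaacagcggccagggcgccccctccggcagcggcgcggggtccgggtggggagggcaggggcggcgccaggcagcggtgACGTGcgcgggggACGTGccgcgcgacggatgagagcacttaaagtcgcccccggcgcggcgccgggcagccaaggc
Slc2a1, chr4:119108495-119108794, plus strand: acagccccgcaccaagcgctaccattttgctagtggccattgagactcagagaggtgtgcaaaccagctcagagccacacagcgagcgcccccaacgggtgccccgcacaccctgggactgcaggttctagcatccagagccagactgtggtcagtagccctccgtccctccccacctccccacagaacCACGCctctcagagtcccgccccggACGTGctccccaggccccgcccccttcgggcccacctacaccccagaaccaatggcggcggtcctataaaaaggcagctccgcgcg

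More than 2-fold apart in at least 1 pair of arrays were 15 of the 41 members (36.6%), against 3232 of 15894 genes (20.3%). Of these members, 3 were higher and 6 were lower in Triple than in IFN-γ + αIL-10R, beside a background of 5.13% of genes higher and 8.24% lower. In CpG, 2 members were higher and 4 were lower than in IFN-γ + αIL-10R, against 3.74% and 4.84% of genes. In Triple, 7 members were higher and 4 were lower than in CpG, against 5.99% and 7.00% of genes. The 3 comparisons share arrays and are not independent of each other. The members were chosen with earlier results of these data known, so these shares are not a test. Triple had the highest signal by more than 2 technical SDs for 12 members, IFN-γ + αIL-10R for 7, and CpG for 3, and over all genes these shares were 14.2%, 14.7%, and 12.0%. Triple also had the lowest signal for 10 members, CpG for 8, and IFN-γ + αIL-10R for 3, where the shares of all genes were 21.0%, 13.2%, and 13.1%.

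The members of 1 pathway did not move as a block. The median log2 fold of Triple over CpG was 0.40 for the 22 glycolysis members, -0.16 for the 15 TCA cycle members, and 0.07 for the 4 pentose phosphate members (the last with the other sign under spike-in scaling), beside -0.05 for all genes. The median log2 fold of CpG over IFN-γ + αIL-10R was -0.33 for glycolysis, 0.14 for the TCA cycle, and -0.05 for the pentose phosphate pathway, beside -0.0017 for all genes. For Triple over IFN-γ + αIL-10R the medians were 0.13 for glycolysis, -0.09 for the TCA cycle, and 0.017 for the pentose phosphate pathway, and all 3 took the other sign under at least 1 of the other scalings. The glycolysis median was 0.32 with the mean over all probes of a gene. The 15 TCA cycle members include Pdk1, Pdha1, Irg1, Slc25a1, and Acly. For the 10 members listed as TCA cycle enzymes, the median was -0.29 for Triple over CpG and 0.16 for CpG over IFN-γ + αIL-10R. It was -0.15 for Triple over IFN-γ + αIL-10R. The 10 include the cytosolic Idh1, Mdh1, and Aco1 and the NADP-dependent Idh2. Their log2 folds of Triple over CpG were -1.86, -1.11, -0.43, and -1.79. For Cs, Idh3a, Ogdh, Suclg1, Fh1, and Mdh2 these folds ran from -0.40 to 0.33.

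**Figure D1:**
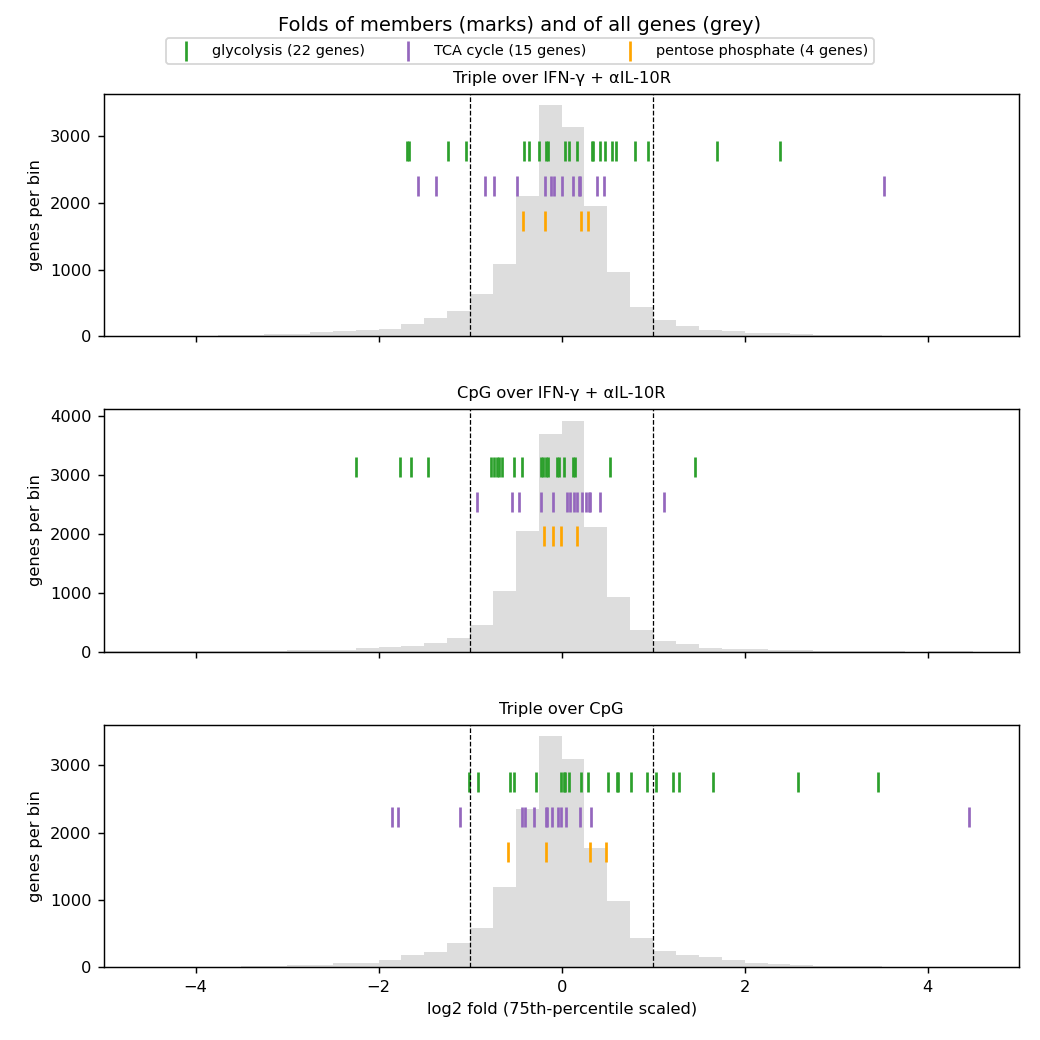
Log2 folds of the 41 members, as coloured marks by pathway at arbitrary heights, over the histogram of all genes well above background on all 3 arrays (grey, genes per bin), 1 panel per comparison, with dashed lines at 2-fold. Members lie in both tails, with Irg1 as the rightmost mark in the upper and lower panels.

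Among the glucose transporters, both members had their highest signal in Triple. Slc2a6 (GLUT6), a facilitative transporter that resides largely on intracellular membranes, had signals of 8774 in CpG, 29303 in IFN-γ + αIL-10R, and 92999.5 in Triple. The order was steep, with Triple 3.24-fold over IFN-γ + αIL-10R and 11.0-fold over CpG, and CpG 3.40-fold under IFN-γ + αIL-10R. A separate probe gave 731, 2464, and 8266 in the same order, so that its log2 folds of 1.78, -1.78, and 3.56 differed from those of the brighter probe (1.70, -1.76, and 3.46) by less than the technical SD. This probe has no stop codon in 2 of its 3 forward frames and lies at chr2:26878631-26878690 on the minus strand (mm9). Slc2a1 (GLUT1), the main glucose transporter of the plasma membrane, had signals of 5545 in CpG, 6379 in IFN-γ + αIL-10R, and 10866 in Triple. Triple was 2.04-fold over CpG, a value next to the threshold, and 1.74-fold over IFN-γ + αIL-10R.

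Of the 3 hexokinases, which phosphorylate glucose, Hk3 and Hk2 had different orders, and the order of Hk1 depended on the probe. Hk3, an isoform found in myeloid cells, had signals of 13267 in CpG, 61684 in IFN-γ + αIL-10R, and 76535 in Triple. CpG stood apart, 4.73-fold under IFN-γ + αIL-10R and 6.00-fold under Triple, and the arrays with IFN-γ differed by 1.27-fold. Hk2, the inducible isoform, had 3085, 2102, and 3019 in the same order, with no pair past 2-fold. The folds of Hk3 and Hk2 between CpG and IFN-γ + αIL-10R differed by a factor of 6.82. For Hk1, the housekeeping isoform, the brightest probe gave 109627, 105767, and 86991.5, but its annotated position is on chromosome 5, while the other probes lie on chromosome 10. Those probes gave log2 folds of CpG over IFN-γ + αIL-10R of -0.92 and -0.93, against 0.03 for the brightest one, so that the direction for Hk1 depended on the probe. Both put CpG lowest, as for Hk3, with log2 folds of Triple over CpG of 0.57 and 0.74, against -0.28 for the brightest one.

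The probes of Slc2a6, Hk3, and Pfkp are shown because with them CpG was the lowest array, more than 3-fold under IFN-γ + αIL-10R. The sequences are those of the array design.
Slc2a6, second probe: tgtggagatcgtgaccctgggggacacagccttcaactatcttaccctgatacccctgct
Hk3, chr13:55107900-55107959 (mm9), minus strand: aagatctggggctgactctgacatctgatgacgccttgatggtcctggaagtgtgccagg
Pfkp, brighter probe: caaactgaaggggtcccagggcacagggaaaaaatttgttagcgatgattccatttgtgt

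In the next steps of glycolysis, the phosphofructokinases, which catalyse the committed step, also differed by isoform. Pfkp, the platelet type, had signals of 2033 in CpG, 6254 in IFN-γ + αIL-10R, and 4776 in Triple. CpG was 3.13-fold under IFN-γ + αIL-10R and 2.44-fold under Triple. A dimmer probe gave 148, 244, and 159, with a log2 fold of Triple over CpG of 0.16 against 1.29 for the brighter probe, and it put CpG 1.68-fold under IFN-γ + αIL-10R, so that neither difference of CpG was past 2-fold with both probes. Pfkl, the liver type, had 1083, 1781, and 2418 in the same order, with Triple 2.32-fold over CpG. Pfkm, the muscle type, had 898, 2421, and 1002, and IFN-γ + αIL-10R was the highest array, 2.74-fold over CpG and 2.36-fold over Triple. Pfkm was measured by 10 spots on the CpG and IFN-γ + αIL-10R arrays and 9 on the Triple array, and the spots of IFN-γ + αIL-10R (2237 to 2512) did not overlap those of CpG (837 to 972) or Triple (941 to 1154). Spots of 1 array are repeats of 1 probe and not replicates of a condition. Pfkfb3 and Pfkfb4, bifunctional enzymes that set the level of the activator fructose 2,6-bisphosphate, stayed within 2-fold, with log2 folds of Triple over CpG of 0.61 and -0.56. A dimmer probe of Pfkfb3 gave 0.97, a fold of 1.95 that is next to the threshold.

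The aldolases, which split fructose 1,6-bisphosphate, went opposite ways in Triple. Aldoc, the brain type, had signals of 4928 in CpG, 7616 in IFN-γ + αIL-10R, and 2355 in Triple. Triple was 3.17-fold under IFN-γ + αIL-10R and 2.01-fold under CpG, the second value next to the threshold. Aldoa, the ubiquitous type, had 273610, 246137, and 321773, and its folds stayed within 1.34. Between Triple and IFN-γ + αIL-10R the folds of Aldoa and Aldoc differed by a factor of 4.23. Gpi1, which makes fructose 6-phosphate, had signals of 87774 to 99404, and Tpi1, which interconverts the triose phosphates, was lowest in CpG, with a log2 fold of Triple over CpG of 0.76.

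**Figure D2:**
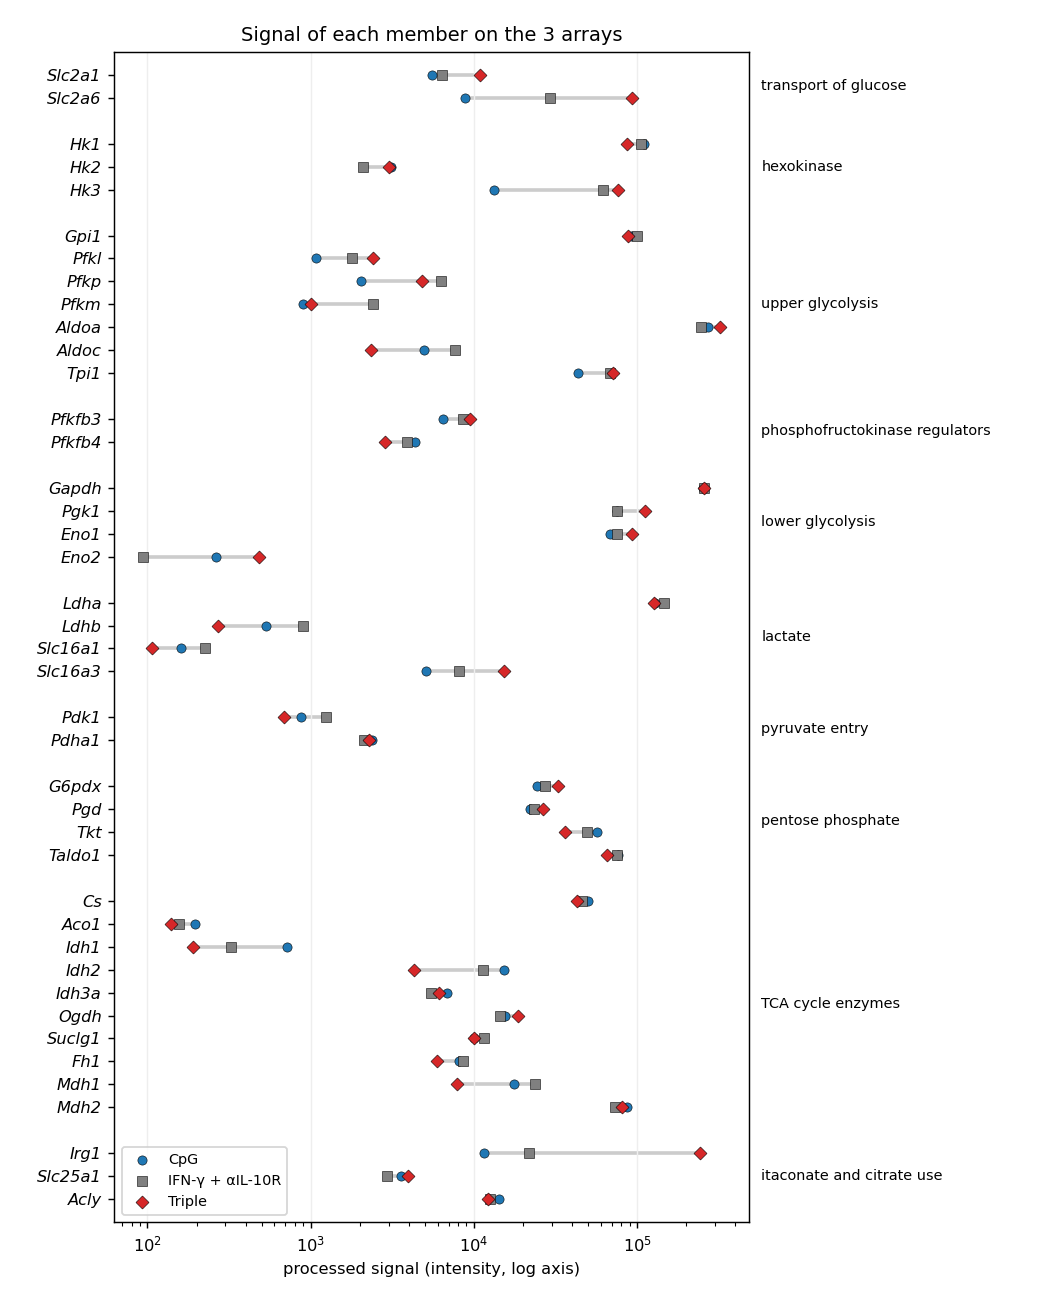
Processed signal (intensity, log axis) of each of the 41 members on the CpG (circles), IFN-γ + αIL-10R (squares), and Triple (diamonds) arrays, with 1 array per condition, a line from the lowest to the highest, and members grouped by role. Irg1 and Slc2a6 have the longest lines, with Triple at the right end, and Gapdh and Gpi1 have overlapping points.

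In lower glycolysis, Eno2 was the member past 2-fold. Eno2, the enolase of neurons, had signals of 262 in CpG, 94.2 in IFN-γ + αIL-10R, and 481 in Triple. IFN-γ + αIL-10R was the lowest array, with CpG 2.74-fold and Triple 5.22-fold over it. Eno1, the ubiquitous enolase, had 67941, 75141, and 92926, with no pair past 2-fold, although its only probe is annotated on chromosome 2. The fold of Triple over IFN-γ + αIL-10R differed between Eno2 and Eno1 by a factor of 4.13. Pgk1, which yields the first ATP of the pathway, had 75378, 75332, and 111411, so that Triple was 1.51-fold over IFN-γ + αIL-10R. This probe is annotated on chromosome 3, and a probe on chromosome X gave 54720, 57865, and 82454, a fold of 1.46. Gapdh had 252757, 257636, and 257997 with the brightest of its 7 probes, which is annotated on chromosome X. Over the 7 probes the log2 fold of Triple over IFN-γ + αIL-10R ran from 0.03 to 0.61. Pgam1, which moves the phosphate of phosphoglycerate, had a single spot that was left out on all arrays for an outlying local background, and with the spot kept its signals were 62402, 68516, and 75336. Pkm2 was not on the array under this name, and the probe named Pkm, for pyruvate kinase, gave 80015, 97202, and 97572.

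At the step to lactate, the isoforms of each pair differed in Triple. Slc16a3 (MCT4), the exporter of lactate in glycolytic cells, had signals of 5059 in CpG, 8129 in IFN-γ + αIL-10R, and 15292 in Triple. Triple was 3.14-fold over CpG and 1.92-fold over IFN-γ + αIL-10R, and a separate probe gave log2 folds of 1.59 and 0.95 against 1.65 and 0.94. Slc16a1 (MCT1), which carries lactate in both directions, had 159, 224, and 107, with Triple 2.06-fold under IFN-γ + αIL-10R. This call was lost under 6 of the 13 alternatives that give folds, with log2 folds from -1.18 to -0.68. Between Triple and IFN-γ + αIL-10R the folds of the transporters differed by a factor of 3.96. Ldhb, the lactate dehydrogenase subunit of oxidative tissues, had 530.2, 893, and 272, with Triple 3.22-fold under IFN-γ + αIL-10R. Ldha, the subunit of glycolytic tissues, had 128931, 145666, and 126972, with log2 folds between -0.20 and 0.03.

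Entry of pyruvate into mitochondria and the pentose phosphate pathway held no member past 2-fold. Pdk1, a kinase that inactivates pyruvate dehydrogenase, had signals of 873 in CpG, 1246 in IFN-γ + αIL-10R, and 683 in Triple, and Pdha1, a subunit of that enzyme, stayed between 2115 and 2364. G6pdx, the first enzyme of the oxidative branch, had 24358, 27417, and 32731, and Pgd, the next NADPH-producing enzyme, had 22108, 23266, and 26325. Tkt, of the non-oxidative branch, had 56603, 49619, and 36274, and was lowest in Triple by more than 2 technical SDs. Taldo1, of the same branch, stayed between 65418 and 76367.

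Hif1a encodes the oxygen-regulated subunit of HIF-1, a transcription factor known to raise genes of glycolysis. The probe measured on all arrays was at background on each of them, so Hif1a was not among the 41 members. A probe for its RefSeq mRNA was left out because its local background, not the spot itself, was marked as an outlier on all 3 arrays. With this spot kept, the signals were 1650 in CpG, 3646 in IFN-γ + αIL-10R, and 4340 in Triple. CpG was then the lowest array, with a log2 fold of -1.17 over IFN-γ + αIL-10R, and Triple was above it by 1.45.

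Of the 10 members listed as TCA cycle enzymes, Idh2 and Mdh1 were more than 2-fold lower in Triple than in both other arrays. Idh1 was more than 2-fold lower in Triple than in CpG alone, and the rest stayed within 2-fold in every pair. Idh2, the mitochondrial NADP-dependent isocitrate dehydrogenase, had signals of 15368 in CpG, 11322 in IFN-γ + αIL-10R, and 4270.5 in Triple. Triple was 3.46-fold under CpG and 2.59-fold under IFN-γ + αIL-10R. Idh1, the cytosolic NADP-dependent enzyme, had 715, 324, and 189.9, with CpG 2.17-fold over IFN-γ + αIL-10R and 3.62-fold over Triple. For Idh1, Triple was 1.67-fold under IFN-γ + αIL-10R. Idh3a, a subunit of the NAD-dependent enzyme of the cycle, had log2 folds between -0.10 and 0.30, so that the fold of Triple over CpG differed from that of Idh2 by a factor of 3.23. Mdh1, the cytosolic malate dehydrogenase of the malate-aspartate shuttle, had 17593, 23841, and 7853, with Triple 2.97-fold under IFN-γ + αIL-10R and 2.16-fold under CpG. Mdh2, the mitochondrial malate dehydrogenase, had 86617, 72755, and 81346. Fh1, fumarate hydratase, was lowest in Triple with log2 folds of -0.49 over IFN-γ + αIL-10R and -0.40 over CpG, and its second probe gave -0.46 and -0.44. Cs (citrate synthase), Ogdh (of the oxoglutarate dehydrogenase complex), Suclg1 (of succinyl-CoA ligase), and Aco1, the cytosolic aconitase, had log2 folds between -0.43 and 0.38.

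Irg1, which makes itaconate from cis-aconitate, had the largest fold of all members. Its signals were 11599 in CpG, 21684 in IFN-γ + αIL-10R, and 244379 in Triple, each the mean of 9 spots on the log2 scale. The spots ranged from 10974 to 12048, from 21323 to 22315, and from 229735 to 264703, in the same order, and did not overlap between arrays. Triple was 11.5-fold over IFN-γ + αIL-10R and 21.9-fold over CpG, and CpG was 1.90-fold under IFN-γ + αIL-10R. Among 15894 genes this fold ranked 62 over IFN-γ + αIL-10R and 36 over CpG. Slc25a1, the citrate carrier of mitochondria, and Acly, which splits exported citrate into acetyl-CoA, stayed within 2-fold, with log2 folds of Triple over IFN-γ + αIL-10R of 0.47 and 0.01.

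**Figure D3:**
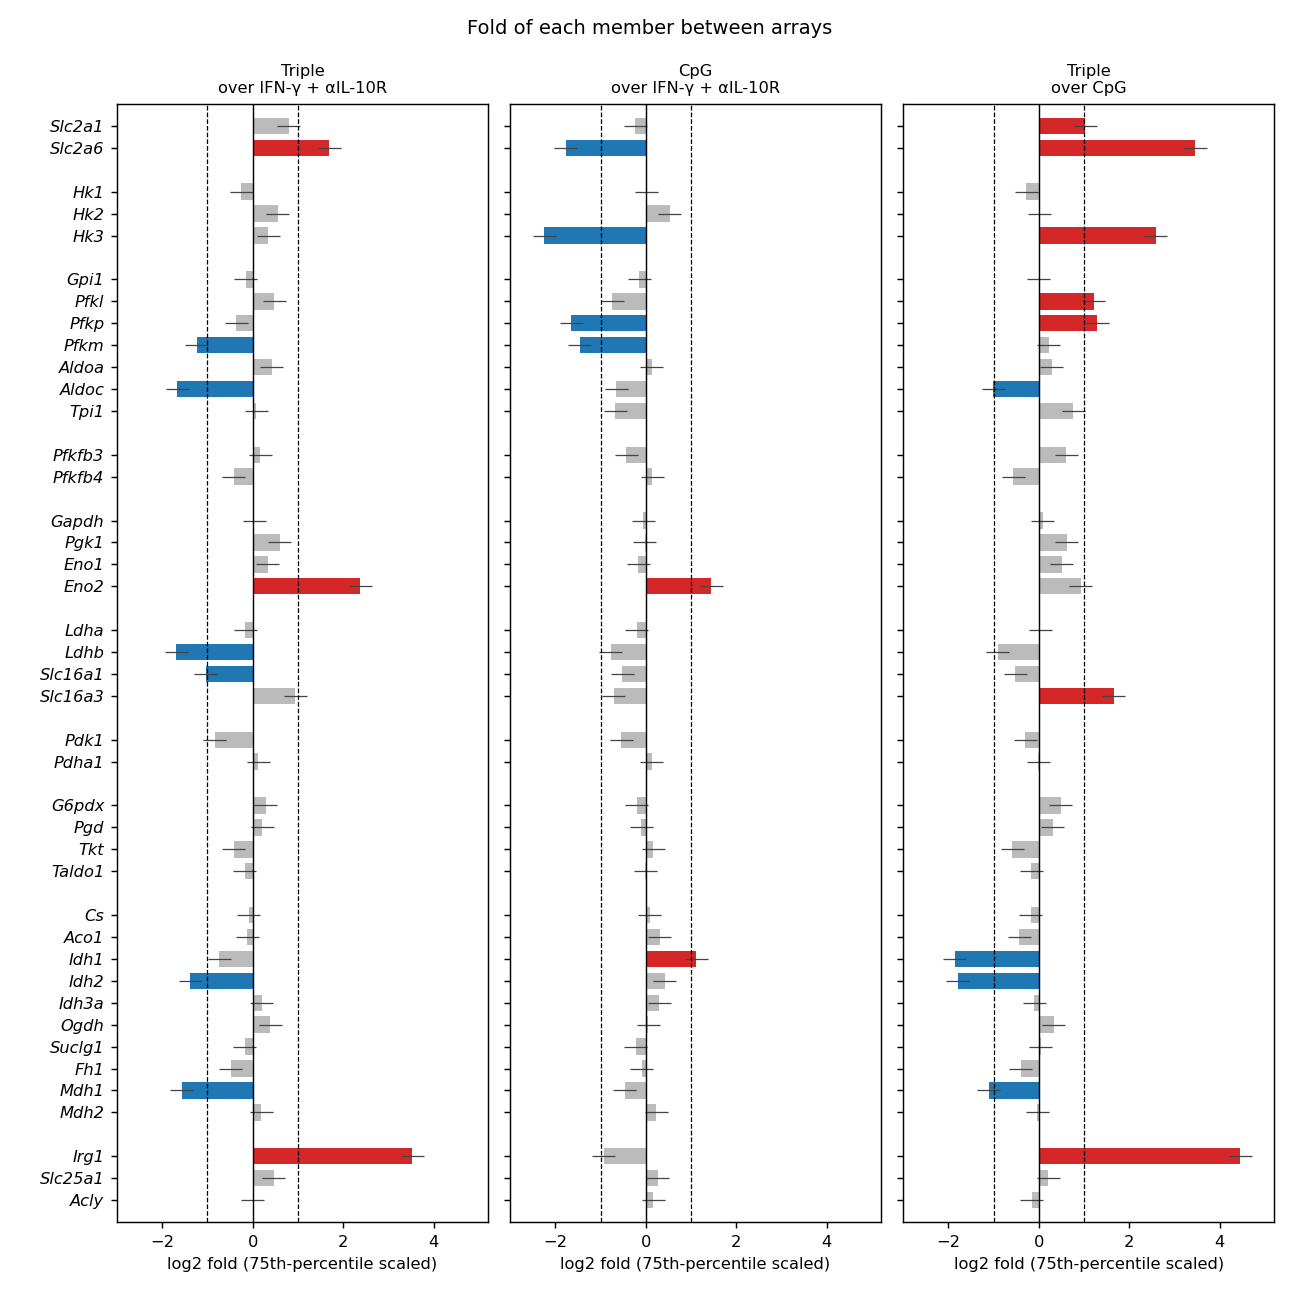
Log2 folds of the 41 members between each pair of arrays (bars, in the order of roles), with error bars of 2 technical SDs of a fold between single spots, which are not replicate error, and dashed lines at 2-fold. Red bars are more than 2-fold higher and blue bars more than 2-fold lower; Irg1 and Slc2a6 are the longest bars for Triple over CpG, and Idh1 and Idh2 the lowest.

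Of the 41 members, 13 had more than 1 probe above background on all arrays. The probes of Slc2a6, Slc16a3, Pgk1, Fh1, and Gpi1 lay within the technical SD of each other in each comparison. For Hk1, Pfkp, Pfkfb3, Gapdh, Ogdh, and Acly they differed by more than 2 technical SDs in at least 1 comparison. For Ogdh the log2 fold of CpG over IFN-γ + αIL-10R ran from -0.56 to 0.10.

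**Figure D4:**
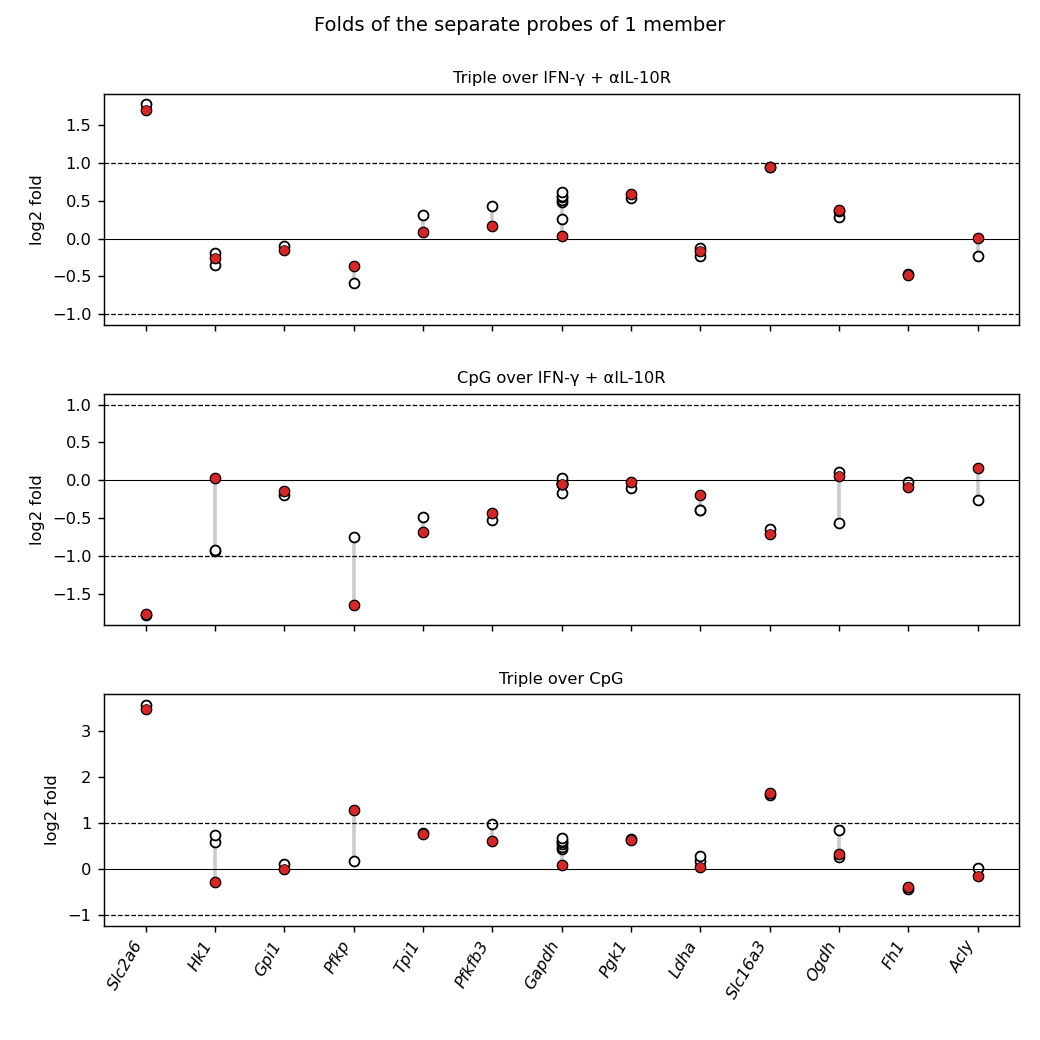
Log2 folds of each probe of the 13 members with more than 1 probe above background (open circles), with the probe that represents the gene in red and dashed lines at 2-fold, 1 panel per comparison. The probes of Slc2a6 and Slc16a3 coincide, and those of Hk1, Pfkp, and Gapdh are spread.

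Promoter windows were found in RefSeq for 42 of the 43 members on the array, with 61 windows, and they were searched on both strands. At least 1 ACGTG or GCGTG, the core letters bound by HIF, was present for 37 of the 42 members (88.1%), against 66.3% of genes that were above background throughout and 46.7% of all genes with a window. A gene with several windows has more chances of a match. By window, the shares were 83.6% for members, 60.8% for genes above background throughout, and 43.8% for all windows. A window held a median of 20 CG dinucleotides for members and also for the genes above background, and 7 for all windows. In the windows printed above, Slc16a3 held ACGTG 27 and 14 bases before the start site, Slc2a1 held it 36 bases before, Irg1 held 1 match 18 bases before, and Slc2a6 held 4 matches, all of them to GCGTG. The motif GAAANNGAA of IRF factors was found for 2 members, Pgk1 and Suclg1. This was 4.76% of the members, against 8.98% of genes above background throughout and 9.76% of all genes. The NF-κB motif GGNNTTTCC was found for 4 members, among them Irg1, where it lies 85 bases before the start site, and Eno2. The share was 9.52% of the members, against 7.31% of genes above background throughout and 6.62% of all genes. None of these matches overlapped a match to another motif in the windows printed. These matches are letters in a window and say nothing about binding.

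Other genes of the same pathways were counted from lists, with calls for genes well above background on at least 1 array of a pair. By this rule 6.57% of all genes were higher and 9.31% were lower in Triple than in IFN-γ + αIL-10R, 5.06% and 5.84% in CpG than in IFN-γ + αIL-10R, and 7.47% and 8.34% in Triple than in CpG. Of 28 other genes of glycolysis and gluconeogenesis measured, 16 were above background on some array and 5 were past 2-fold in some pair, where the share of all genes above background on some array was 23.4%. Among them Slc2a3 (GLUT3) had signals of 856 in CpG, 657 in IFN-γ + αIL-10R, and 286 in Triple, and Slc2a8 (GLUT8) had 7312, 6839, and 2851, so that both were lowest in Triple. Slc16a6, of the monocarboxylate transporter family, had 7554, 2970, and 6392, and Pgk2, the testis isoform of phosphoglycerate kinase, was not above background in IFN-γ + αIL-10R, with CpG at least 4.34-fold over it. Of 12 other genes of pyruvate entry, 2 were past 2-fold: Pdk2 was 2.18-fold lower in Triple than in IFN-γ + αIL-10R, and Pdk3 was 2.08-fold lower in CpG. Of 9 other pentose phosphate genes, Prps2, which makes phosphoribosyl pyrophosphate, was the only one past 2-fold, with signals of 539, 628, and 151 and Triple 4.08-fold under IFN-γ + αIL-10R.

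Of 19 other TCA cycle and anaplerosis genes, 17 were above background on some array. Of these, 3 were past 2-fold in some pair, beside 23.4% of all genes above background on some array. No gene of this list was more than 2-fold lower in Triple than in another array, or in CpG than in IFN-γ + αIL-10R. Slc25a10, the dicarboxylate carrier of mitochondria, had signals of 1419 in CpG, 425 in IFN-γ + αIL-10R, and 2486 in Triple, with Triple 5.98-fold over IFN-γ + αIL-10R. Me1, the cytosolic NADP-dependent malic enzyme, had 2204, 550.5, and 1812, and Got1, the cytosolic aspartate aminotransferase, was 2.16-fold higher in Triple than in CpG. Of 7 genes of the HIF pathway, Egln2, a prolyl hydroxylase, was 2.24-fold higher in Triple and 2.53-fold higher in CpG than in IFN-γ + αIL-10R, and Hif3a was 3.02-fold and 2.67-fold higher. None of the 7 reference genes was past 2-fold in any pair.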

How the data were processed

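Total RNA of 3 BMDM cultures, 1 per condition, was labeled with Cy3 and hybridized to Agilent SurePrint G3 mouse arrays. The authors deposited scanner files made with Agilent Feature Extraction 10.10.1.1. Their processed signal is a background-subtracted, detrended intensity, unscaled between arrays, and their flag for signals well above background was used as deposited. Mean spot and local background intensities, also deposited, served 1 alternative. A table of log2 values deposited by the authors differed from the log2 processed signals by a single constant on each array (signals of 368, 373, and 338); the normalization is not given in the sources used here. Probe positions are those of the array design (mm9).

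Control spots were dropped, as were spots marked as outliers in the spot or its background. Log2 signals of the spots of a probe were averaged, and the 75th percentile of each array, taken over 21233 probes that were bright on every array, was subtracted. A gene took its probe with the highest mean signal, and a dim signal was raised to the lowest signal well above background on its array (23.8 to 26.7), so that a fold against it is a bound. A call was a fold over 2 with the brighter signal well above background. Every member on the array is named, and of each other list at most 4 genes past 2-fold. Members and lists were chosen with earlier results of these data known.

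With 1 array per condition no test was possible, and precision is limited by signal over background and by the number of arrays. All arrays shared 1 slide and 1 scan. The 15 alternatives covered background correction (normexp, offset 50, limma 3.58.1, R 4.3.3), scaling, dim-signal filters, probe choice, outlier spots, and thresholds of 1.5-fold and 3-fold. The code was tested on simulated data. Calculations used Python 3.11.15, numpy 2.4.6, and pandas 2.3.3, with matplotlib 3.10.9. Some marker genes and 1 motif search are not reported here.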

Additional observations from a re-analysis of the deposited data

How the results depend on the processing

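Of the 26 calls of members, 21 stayed past 2-fold under all 13 alternatives that give folds, none took the other sign, and 7 lay within 2 technical SDs of the threshold. The calls lost were Slc16a1 in Triple against IFN-γ + αIL-10R (6 alternatives), and, in Triple against CpG, Slc2a1 (3 alternatives, lowest log2 fold 0.93), Aldoc (5, to -0.88), Pfkp (mean over probes, 0.73), and Mdh1 (reference genes, -0.98). Slc16a3 passed 2-fold for Triple over IFN-γ + αIL-10R under 4 scalings (log2 folds 1.05 to 1.07). Members higher and lower in Triple than in IFN-γ + αIL-10R, 3 and 6, became 4 and 5 with the 75th percentile over all probes, median or reference gene scaling, and the authors' table, which shifted the all-gene median by 0.11 to 0.13 (log2). Spike-in scaling moved it by -0.13, and the median for Triple over IFN-γ + αIL-10R then was -0.10 for all members, -0.0085 for glycolysis, -0.12 for the pentose phosphate pathway, and -0.22 for the TCA cycle, while the TCA cycle median became 0.02 to 0.04 under the 4 scalings named. Over all genes, those 4 scalings gave 1394 to 1432 higher and 1426 to 1471 lower in Triple than in IFN-γ + αIL-10R, in place of 1187 and 1681. Reference gene scaling left 2 members lower and 8 higher in Triple than in CpG, in place of 4 and 7. The counts over all genes moved the same way, to 1280 lower and 1600 higher, in place of 1529 and 1370. With the mean over all probes, the glycolysis median was 0.32 in Triple and -0.50 in CpG, both over IFN-γ + αIL-10R, and that of all members was 0.16 in Triple over CpG. With RefSeq mRNA probes alone, the glycolysis median was 0.54 in Triple over CpG and -0.48 when CpG was set over IFN-γ + αIL-10R. At 1.5-fold, 6 members were higher and 8 lower in Triple than in IFN-γ + αIL-10R, beside 2410 and 3143 of 18063 genes. In CpG, 2 members were higher and 10 lower than in IFN-γ + αIL-10R, beside 2049 and 2347 of 18280 genes. In Triple, 11 were higher and 6 lower than in CpG, beside 2619 and 3017 of 18335 genes. These genes were well above background on at least 1 array of the pair. At 3-fold, the member counts in the same order were 3 and 2, 0 and 3, and 4 and 2. Beside them stood 620 and 822, 421 and 515, and 706 and 701 genes. Which calls these settings change follows from the threshold, the probes, or the scaling used, and beyond that the cause was not tested. No paired analysis was possible because no group held more than 1 array. Of the 15 called members, 3 (Slc2a1, Hk3, and Mdh1) had their only spot in the first 48 rows of the array, against 5 of all 41, and the part of this position was not tested.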

Other observations

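Of 12 measured HIF target genes outside glycolysis, 11 were above background on some array, and 3 were past 2-fold in some pair, beside 23.4% of all genes above background on some array. Ndrg1, a stress-response gene, had signals of 90540.1 in CpG, 615 in IFN-γ + αIL-10R, and 4333 in Triple. CpG was the highest array by far, 20.1-fold over Triple and 145-fold over IFN-γ + αIL-10R. Vegfa, an angiogenic growth factor, had 321 in CpG, 2541 in IFN-γ + αIL-10R, and 1697 in Triple, and CpG was the lowest array, 8.04-fold under IFN-γ + αIL-10R. Adm, which encodes adrenomedullin, was above background in CpG alone, at least 3.59-fold over IFN-γ + αIL-10R. The genes of this list had no common order across the arrays.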
